A study of Mus musculus with 6 samples.

Results

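The clustered protocadherins are adhesion genes that lie side by side on mouse chromosome 18 in an alpha, a beta and a gamma cluster. They were measured here by 23 of the 28856 array rows. A row was taken when every gene symbol of its platform annotation was that of a clustered protocadherin. Of the 23 rows, 22 named 1 gene each, Pcdhb1 to Pcdhb22 of the beta cluster. The remaining row was a multi-gene row that named 14 alpha genes together, among them the C-type genes Pcdhac1 and Pcdhac2. No row was named for the gamma cluster, so its genes, including Pcdhgc3, Pcdhgc4 and Pcdhgc5, were not analysed here. The tissue was whole brain, taken from mouse embryos on embryonic day 16.5, with 3 wild-type brains and 3 Tdp2Δ1-3 brains, which lack exons 1 to 3 of Tdp2. The mice carried no other labelled allele or treatment. The labels do not say whether the deletion acts throughout the body or in some cells only, and no strain or sex is given for the embryos.

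Each clustered protocadherin is a cadherin-like protein of the cell surface that binds its own kind on a neighbouring cell. In most neurons a small, largely random choice of promoters is active, so that neighbouring cells carry different sets of these proteins, which is known to help the branches of a single neuron to recognise and avoid each other. Binding of CTCF and cohesin-driven looping to distant enhancers, together with DNA methylation, are known to govern that choice. In the alpha and gamma clusters a variable first exon is spliced to shared constant exons, whereas each beta gene is a single variable exon with its own transcript. Tdp2 removes topoisomerase II protein that has become trapped on the ends of DNA breaks, and the study set mutant against wild-type brains to find transcripts that change when this gene is disrupted.

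All values are deposited log2 values centred on the median of each row over the 6 arrays. They show differences between brains and carry no level, so no gene's abundance can be set against another's. Tdp2 itself was at 0.90, 1.10 and 1.34 in wild-type brains and at -1.05, -0.90 and -0.94 in the mutants. Its row was lower in every mutant brain and fell by 2.07 ± 0.10 on the log2 scale (SE, n = 3 per genotype; limma adjusted p = 0.00035), though whether its probes lie in the deleted exons is not given. The median over 23410 gene rows of the log2 difference, mutant minus wild type, was 0.01. The arrays' means over those rows were at most 0.019 from 0. A row was called when its limma p, adjusted over all 23410 gene rows, was under 0.05. Of those rows, 4.13% were called lower and 2.34% higher in the mutants. The call counts over all rows changed widely with the arrays used, from 113 lower rows without mutant replicate 2 to 1639 without mutant replicate 1, against 967 with all arrays.

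The alpha row was lower in the mutants. Its values were 0.23, 0.16 and 0.08 in wild-type brains and -0.08, -0.09 and -0.10 in the mutants. The groups did not overlap, and the mutant brains lay close together (SD 0.0069) while the wild types were more spread (SD 0.071). The alpha row fell by 0.25 ± 0.05 (SE, n = 3 per genotype), 1.19-fold, with a limma adjusted p of 0.026. This is below the 1.5-fold change that the series text sets for a changed gene. Because the row stands for all 14 alpha genes, it does not tell which of them differed. The call was lost in the fits without wild-type replicate 1 (adjusted p = 0.064) or 2 (0.11), or without mutant replicate 2 (0.11) or 3 (0.086), with differences between -0.28 and -0.21 over the 6 fits that left out 1 array. In bulk tissue such as these brains, fewer cells that express a gene and less RNA per cell cannot be told apart.

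In the beta cluster 2 of 22 genes fell, 20 did not pass and none rose (by limma), while 4.13% of all gene rows were called lower. At an unadjusted p under 0.05, 13 beta genes were lower and 0 higher, and 11.8% of all gene rows were lower by that measure. The genes that fell were Pcdhb18 and Pcdhb22. Pcdhb18 was at 0.10, 0.25 and 0.24 in wild-type brains and at -0.10, -0.20 and -0.31 in the mutants, with no overlap. It fell by 0.40 ± 0.07 (SE, n = 3 per genotype), which is 1.32-fold, with a limma adjusted p of 0.015. Pcdhb22, the beta gene nearest to the gamma cluster, was at 0.12, 0.23 and 0.25 in wild-type brains and at -0.12, -0.13 and -0.27 in the mutants, again with no overlap. It fell by 0.37 ± 0.06, 1.29-fold (limma adjusted p = 0.014). In each of these genes wild-type replicate 1 was the lowest wild type and mutant replicate 3 the lowest mutant. Both calls were lost without wild-type replicate 2 (limma adjusted p = 0.074 for Pcdhb18 and 0.072 for Pcdhb22) and without mutant replicate 2 (0.077 and 0.067). No clustered protocadherin reached a 1.5-fold change, a limit that 0.641% of all gene rows passed together with the adjusted p.

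**Figure D1:**
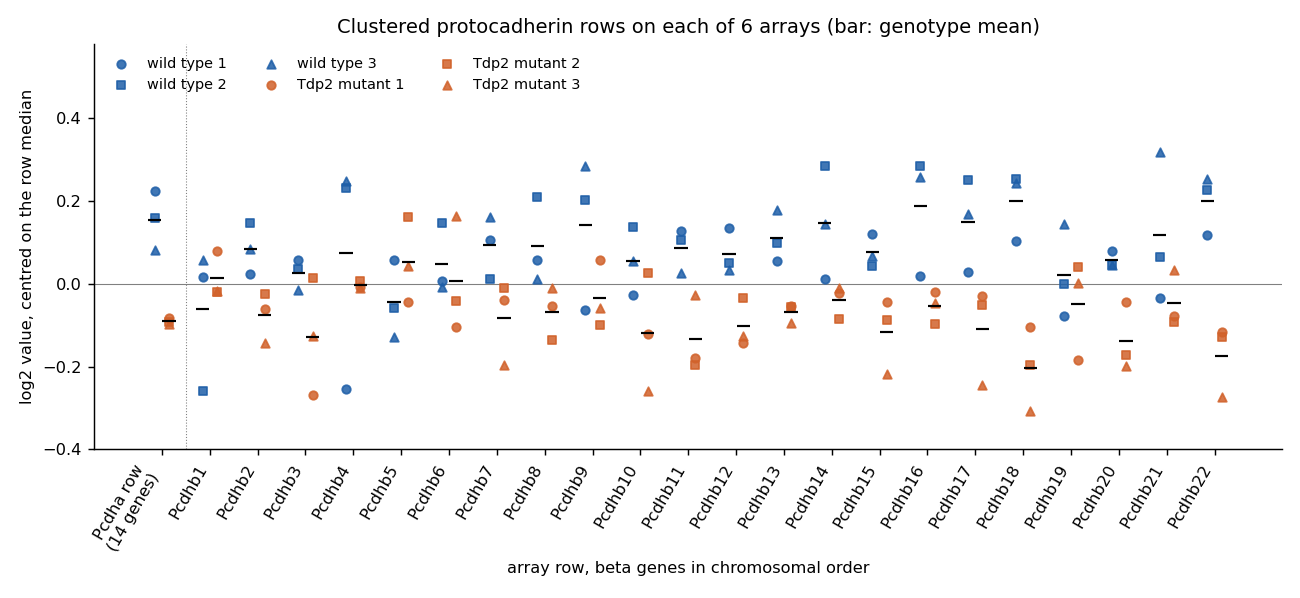
Centred log2 value (vertical axis) of each clustered protocadherin row on each of the 6 arrays, with the alpha row first and the beta genes in chromosomal order; blue marks are wild-type and orange marks mutant brains, marker shape gives the replicate number and black bars are genotype means. The alpha row and 13 of the 22 beta genes, Pcdhb18 and Pcdhb22 among them, have every mutant below every wild type (12.6% of all gene rows). The groups overlap in 9 beta genes such as Pcdhb1 and Pcdhb5.

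The other beta genes had small differences, most of them below 0. Over the 22 genes the median log2 difference was -0.17, with a range from -0.40 to 0.10, beside a median of 0.01 over all gene rows. A negative difference was found in 20 of 22 beta genes and in 43.2% of all gene rows. In 13 of the 22 genes every mutant brain lay below every wild-type brain, an arrangement seen in 12.6% of all gene rows. In the other 9 genes the groups overlapped, and in 0 of 22 did every mutant lie above every wild type (13.1% of all gene rows). Beta genes resemble each other closely in sequence, and the probes of one row may detect transcripts of another, so their values are not independent of each other. How far the probes of each row are specific to its gene is not given in the sources used here.

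Just short of the threshold stood Pcdhb13, at 0.05, 0.10 and 0.18 in wild-type brains and -0.05, -0.06 and -0.10 in the mutants, with no overlap. Its difference was -0.18 ± 0.05 (SE, n = 3 per genotype; limma adjusted p = 0.065), the smallest adjusted p among the 20 beta genes that did not pass. Close to it were Pcdhb20, with a difference of -0.20 ± 0.05 (limma adjusted p = 0.067), and Pcdhb11, with -0.22 ± 0.06 (limma adjusted p = 0.067). Pcdhb17 and Pcdhb16 had larger differences with wider errors. Pcdhb17 was at 0.03, 0.25 and 0.17 in wild-type brains and -0.03, -0.05 and -0.24 in the mutants, a difference of -0.26 ± 0.08 (limma adjusted p = 0.092). Pcdhb16 was at 0.02, 0.29 and 0.26 against -0.02, -0.10 and -0.05, a difference of -0.24 ± 0.07 (limma adjusted p = 0.095). In both genes wild-type replicate 1 sat near the mutants, and Pcdhb16 passed when that array was left out (limma adjusted p = 0.025).

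The 9 genes with overlapping groups were Pcdhb1, Pcdhb3, Pcdhb4, Pcdhb5, Pcdhb6, Pcdhb9, Pcdhb10, Pcdhb19 and Pcdhb21. Pcdhb1, the beta gene nearest to the alpha cluster, is known to differ from the rest in lacking the conserved promoter element that the others share. Its values were 0.02, -0.26 and 0.06 in wild-type brains and 0.08, -0.02 and -0.02 in the mutants. The groups overlapped, and the difference was 0.08 with a 95% interval from -0.12 to 0.27 (limma adjusted p = 0.68). Pcdhb5 was the other gene with a positive difference, at 0.06, -0.06 and -0.13 in wild-type brains and -0.04, 0.16 and 0.04 in the mutants. Its difference was 0.10 with a 95% interval from -0.06 to 0.26 (limma adjusted p = 0.49). For Pcdhb6 the interval ran from -0.22 to 0.14 and for Pcdhb19 from -0.25 to 0.11, and both include 0. Pcdhb4 was the most variable member. It was at -0.25 in wild-type replicate 1 and at 0.23 and 0.25 in the other wild types, while the mutants lay between -0.010 and 0.0065. Its difference was -0.08 ± 0.12 with all arrays (limma adjusted p = 0.79) and -0.24 without wild-type replicate 1 (limma adjusted p = 0.038).

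**Figure D2:**
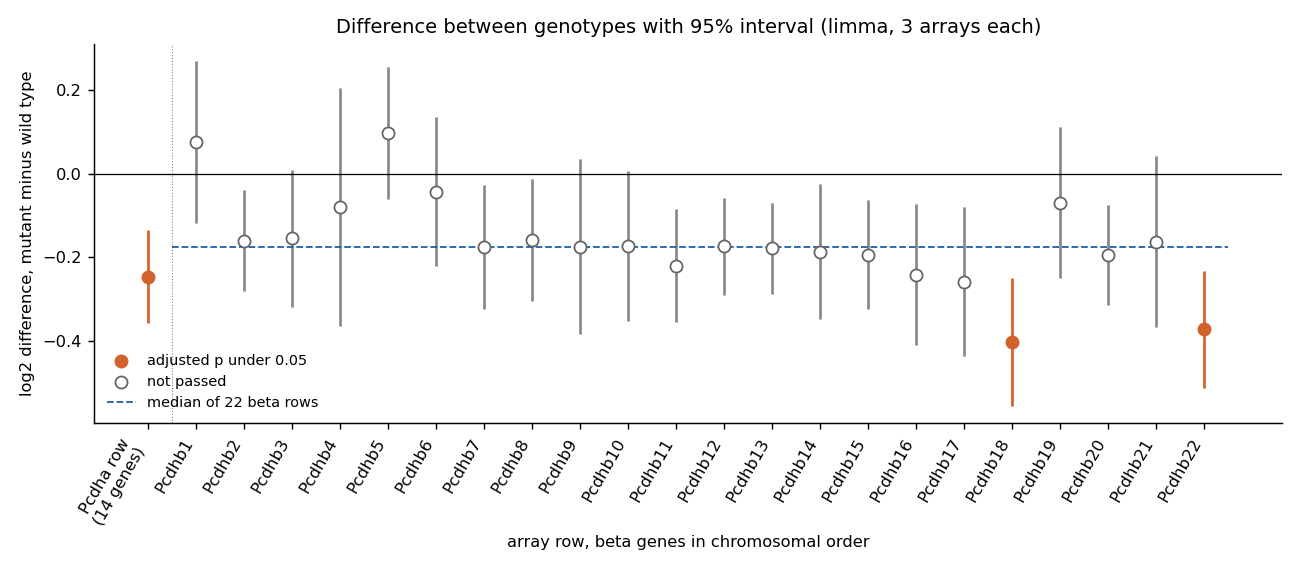
Log2 difference between genotypes, mutant minus wild type (vertical axis), for the alpha row and the 22 beta genes in chromosomal order, with limma's 95% interval as a vertical line; filled orange points passed an adjusted p under 0.05, open points did not, and the dashed line is the beta median of -0.17. The 3 filled points are the alpha row, Pcdhb18 and Pcdhb22, and 20 of the 22 beta points lie below 0.

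The same differences can be laid out brain by brain, which restates the values above and is not separate support. The mean over the 22 beta genes was 0.03, 0.11 and 0.12 in wild-type brains and -0.07, -0.06 and -0.10 in the mutants. Wild-type replicate 1 was the lowest of the wild types for the beta genes but the highest for the alpha row, at 0.23. Of the 22 beta genes, 19 had their highest value in a wild-type brain and 19 had their lowest value in a mutant brain. Mutant replicate 3 was the lowest array for 9 genes, mutant replicate 2 for 6 and mutant replicate 1 for 4. The highest values were spread over the wild types, with 5 genes highest in replicate 1, 7 in replicate 2 and 7 in replicate 3. In each mutant brain between 17 and 20 of the 22 beta genes were below their row median.

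Differences were more negative toward the gamma end of the beta cluster. The 11 genes from Pcdhb1 to Pcdhb11 had a median difference of -0.16, with 9 of 11 below 0 and 4 with groups that did not overlap. The 11 genes from Pcdhb12 to Pcdhb22 had a median of -0.19, with 11 of 11 below 0 and 9 with groups that did not overlap. Both genes that fell were among these 11. Of all gene rows, 43.2% were below 0, 12.6% had every mutant below every wild type and 4.13% were called lower. Across the 22 genes, position in the row of genes and log2 difference had a Pearson r of -0.63 and a Spearman rho of -0.67. Without Pcdhb18 and Pcdhb22 the r was -0.52 (n = 20), and without Pcdhb1 it was -0.56 (n = 21). With each array left out in turn r lay between -0.65 and -0.52. This description was made after the values were seen, and its points share the same 6 arrays and neighbouring genes of similar sequence.

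Genes around the cluster did not share a direction. Taf7, a general transcription factor subunit gene, and Slc25a2, a mitochondrial carrier gene, lie within the stretch from the alpha to the gamma cluster. Neither passed, with differences of 0.09 ± 0.05 and -0.02 ± 0.04 (limma adjusted p = 0.39 and 0.89). On the alpha side all 9 listed neighbours, from Zmat2 to Cd14, had positive differences between 0.05 and 0.24, and none passed. On the gamma side 8 of 9 listed neighbours were measured, 2 fell and 6 did not pass, beside 4.13% of all gene rows called lower. From the cluster outward, the alpha-side list held protein-coding genes 1 to 9 and the gamma-side list genes 1 to 6 and 10 to 12. Rell2 fell by 0.45 ± 0.10 (limma adjusted p = 0.041) and Ndfip1, which encodes an adaptor of Nedd4-family ubiquitin ligases, by 0.24 ± 0.05 (limma adjusted p = 0.037). Between the gamma cluster and Rell2 lie Diaph1, an actin nucleator gene, and Hdac3, a histone deacetylase gene, at -0.06 ± 0.09 and 0.07 ± 0.04 (limma adjusted p = 0.78 and 0.42). Both Rell2 and Ndfip1 passed only without mutant replicate 1 among the fits that left out 1 array.

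Other protocadherins, which lie outside the clusters and do not take part in the random promoter choice, also had mostly negative differences. Of 12 non-clustered protocadherin genes, 5 fell, 7 did not pass and none rose, with a median difference of -0.21. Of all gene rows 4.13% were called lower. Pcdh11x was at 0.39, 0.31 and 0.13 in wild-type brains and -0.13, -0.38 and -0.45 in the mutants, with no overlap. It fell by 0.60 ± 0.10 (SE, n = 3 per genotype), which is 1.51-fold, with a limma adjusted p of 0.014. Pcdh17 was at 0.40, 0.20 and 0.14 against -0.14, -0.22 and -0.35 and fell by 0.49 ± 0.08 (limma adjusted p = 0.015). Pcdh7 and Pcdh20 fell by 0.33 ± 0.07 and 0.23 ± 0.05 (limma adjusted p = 0.035 and 0.032). Pcdh15, known for its part in the hair cells of the inner ear, fell by 0.41 ± 0.10 (limma adjusted p = 0.049) in the row used, while its other row was at -0.08 ± 0.05 (limma adjusted p = 0.42). Pcdh19, the X-linked gene mutated in a form of epilepsy, stood just outside the threshold with -0.19 ± 0.05 (limma adjusted p = 0.053). Pcdh12 and Pcdh18 had positive differences of 0.10 each that did not pass. None of the 12 passed when replicate 2 of either genotype was left out. Without wild-type replicate 1, 2 fell, as did 2 without mutant replicate 3. The shares of all gene rows called lower were 0.927% without wild-type replicate 2 and 0.483% without mutant replicate 2. They were 1.95% without wild-type replicate 1 and 1.70% without mutant replicate 3. Whether clustered and non-clustered genes differ from each other was not tested.

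The very large cadherins of the Fat, Dachsous and Celsr families, which act in planar cell polarity, did not pass by limma in any of 8 genes measured. At an unadjusted p under 0.05, 1 was higher, beside 2345 of 23410 gene rows. The median difference of the 8 genes was -0.0085. The smallest p was that of Celsr1, at 0.31 ± 0.11 (limma adjusted p = 0.14).

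Genes of the looping machinery had mostly positive differences, 14 of 15, beside 13294 of 23410 gene rows. The part of each in promoter choice was not tested. Of 15 measured genes for looping, covering CTCF, the cohesin ring, its loader and its release and acetylation factors, 1 rose and 14 did not pass, with a median of 0.16. Of all gene rows 2.34% were called higher. The gene that rose was Esco2, a cohesin acetyltransferase that acts in S phase, at -0.63, -0.25 and -0.21 in wild-type brains and 0.21, 0.27 and 0.46 in the mutants. It rose by 0.68 ± 0.12 (SE, n = 3 per genotype; limma adjusted p = 0.017), without overlap of the groups. Its call was lost without wild-type replicate 2, mutant replicate 2 or mutant replicate 3. Ctcf was at 0.09 ± 0.05 (limma adjusted p = 0.33). The cohesin ring genes Smc1a, Rad21 and Smc3 had differences of 0.22 ± 0.06, 0.18 ± 0.07 and 0.11 ± 0.05 (limma adjusted p = 0.059, 0.17 and 0.27). Pds5a and Cdca5 were at 0.30 ± 0.08 and 0.42 ± 0.11 (limma adjusted p = 0.059 and 0.063). Wapl, the cohesin release factor, and Nipbl, the loader, were at 0.18 ± 0.09 and 0.16 ± 0.07 and did not pass (limma adjusted p = 0.29 and 0.26).

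Of 20 measured genes of DNA methylation and silencing, 1 rose and 19 did not pass, with a median of 0.07. Of all gene rows 2.34% were called higher. Uhrf1, which recruits the maintenance methyltransferase to replicated DNA, rose by 0.33 ± 0.08 (limma adjusted p = 0.046), a call that passed in 2 of 6 fits with 1 array left out. Hells, a remodelling enzyme needed for DNA methylation, was at 0.50 ± 0.12 (limma adjusted p = 0.053). Smchd1, a repressor known to act on the clustered protocadherins, was at 0.22 ± 0.07 (limma adjusted p = 0.099). Rest, a repressor of neuronal genes, was at 0.20 ± 0.05 (limma adjusted p = 0.067). Without mutant replicate 1, 3 genes of this list and 3 of the looping list rose, beside 862 of 23410 gene rows called higher in that fit. Genes of cycling cells rose on the same arrays (17 of 17, median 0.56), and their part in the values of both lists was not tested.

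Of 21 measured partners and effectors, which include kinases bound by the cytoplasmic tails and the actin-regulating WAVE complex, 0 passed by limma with genotype alone in the fit. At an unadjusted p under 0.05, 7 were lower and 1 higher, beside 11.8% of all gene rows lower and 2345 of 23410 higher. The median was -0.10. Ptk2b, the kinase Pyk2 that binds alpha and gamma protocadherin tails, was at 0.11, 0.03 and 0.12 in wild-type brains and -0.23, -0.21 and -0.03 in the mutants. Its difference of -0.24 ± 0.06 did not pass (limma adjusted p = 0.066). The WAVE complex genes Nckap1 and Wasf1 were at -0.17 ± 0.05 and -0.24 ± 0.08, and the synaptic adhesion gene Nlgn1 was at -0.22 ± 0.07 (limma adjusted p = 0.11, 0.12 and 0.087). Without mutant replicate 1, 5 of the 21 were called lower, beside 1639 of 23410 gene rows in that fit. Without mutant replicate 3, 1 of the 21 was called lower, beside 399 of 23410 gene rows.

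**Figure D3:**
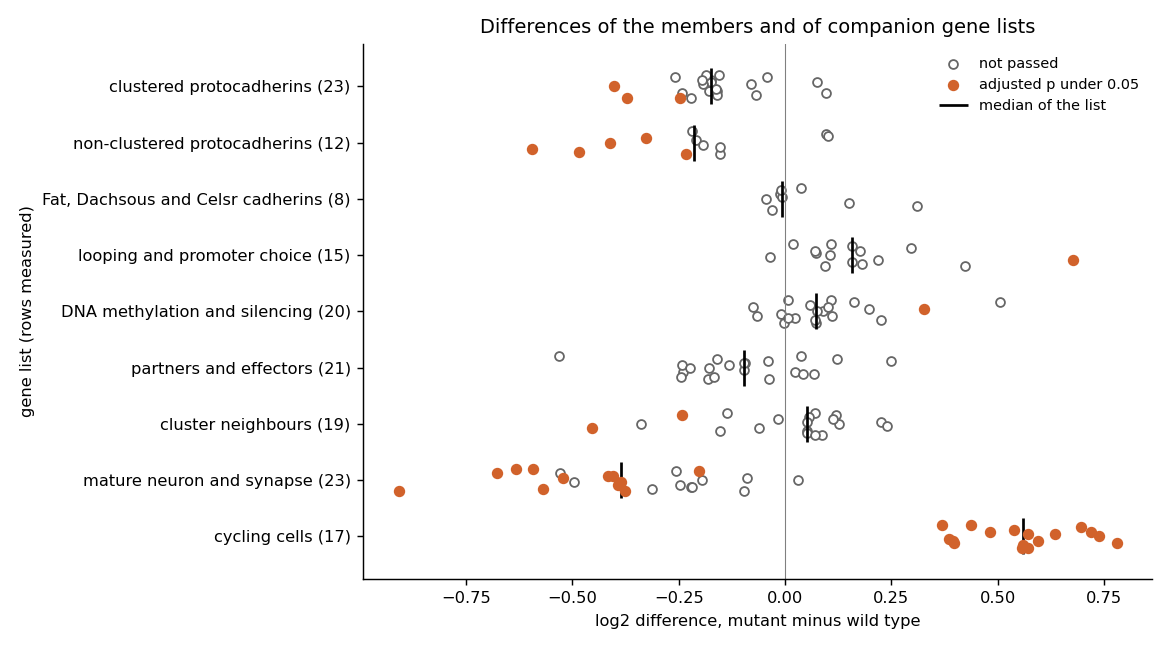
Log2 difference between genotypes, mutant minus wild type (horizontal axis), of each measured gene in the clustered protocadherins and in 8 companion lists, with the number of rows in brackets; filled orange points passed an adjusted p under 0.05, open points did not, and vertical bars are list medians. The clustered and non-clustered protocadherins have medians of -0.17 and -0.21, on the same side as mature neuron and synapse genes at -0.39, while cycling-cell genes have a median of 0.56.

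Markers of cell types moved with genotype on the same arrays. The mature neuron and synapse list had 23 measured genes and a median of -0.39, and 12 of them fell while 11 did not pass. Of all gene rows 4.13% were called lower and 2.34% higher. Camk2b, a kinase subunit of synapses, fell by 0.57 ± 0.06, and Nrgn, Gria1 and Sv2b fell by 0.68, 0.39 and 0.63 (limma adjusted p between 0.0045 and 0.0075). The mean of the neuron list lay between 0.11 and 0.20 in wild-type brains and between -0.32 and -0.10 in the mutants. All 17 measured genes of cycling cells rose in the row used for each, with a median of 0.56. Their mean lay between -0.40 and -0.20 in wild-type brains and between 0.19 and 0.33 in the mutants. Top2a rose by 0.72 ± 0.10 in the row used (limma adjusted p = 0.011), while its other row was at 0.04 ± 0.05 (limma adjusted p = 0.69). Without mutant replicate 2, 1 neuron gene fell and 2 cycling genes rose, with medians of -0.38 and 0.53. That fit called 113 of all gene rows lower and 32 higher. Without wild-type replicate 2, 4 neuron genes fell, while the fit without wild-type replicate 1 called 6 and that without mutant replicate 3 called 7. In these last fits 0.927%, 1.95% and 1.70% of all gene rows were called lower, in the same order. Clustered protocadherins are known mainly from neurons, and the part of these markers in the difference of the alpha and beta rows was not tested.

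By median, the other lists shifted less than the neuron and cycling lists or were mixed. Of all gene rows 4.13% were called lower and 2.34% higher. Of 12 astrocyte genes 5 fell and 1 rose (median -0.27), with Slc4a4 at -0.80 and Fgfr3 at 0.26. None of them passed when replicate 2 of either genotype was left out, and 1 fell without wild-type replicate 1 and without mutant replicate 3. Without replicate 2, 0.927% (wild type) and 0.483% (mutant) of all gene rows were called lower. The shares were 1.95% without wild-type replicate 1 and 1.70% without mutant replicate 3. Of 7 serotonergic neuron genes, a cell type in which Pcdhac2 is known to be needed, none passed by limma. At an unadjusted p under 0.05, 2 were lower and 1 higher, beside 11.8% of all gene rows lower and 2345 of 23410 higher. The serotonin transporter gene Slc6a4 was at -0.52 ± 0.15 (limma adjusted p = 0.085) and Slc18a2 at 0.21 ± 0.05 (limma adjusted p = 0.053). In the meningeal list 2 of 10 genes fell, Ogn and Slc6a13, and in the endothelial list 2 of 8, Slco1c1 and Cldn5. In the choroid plexus list 1 of 9 fell, Trpm3, and of 8 microglial genes none passed (by limma; 0 at an unadjusted p under 0.05). Of 7 red-cell genes 2 rose, the embryonic globin genes Hbb-y and Hba-x, while the list's median was 0.07. Hbb-y rose by 3.79 ± 0.10 and Hba-x by 1.44 ± 0.07 (limma adjusted p = 5.4e-06 and 0.00035). The Hbb-y difference was the largest of all gene rows. Of these called markers Slco1c1, Hbb-y and Hba-x passed in all 6 fits with 1 array left out, Ogn in 5, Trpm3 in 3, Cldn5 in 2 and Slc6a13 in 1.

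**Figure D4:**
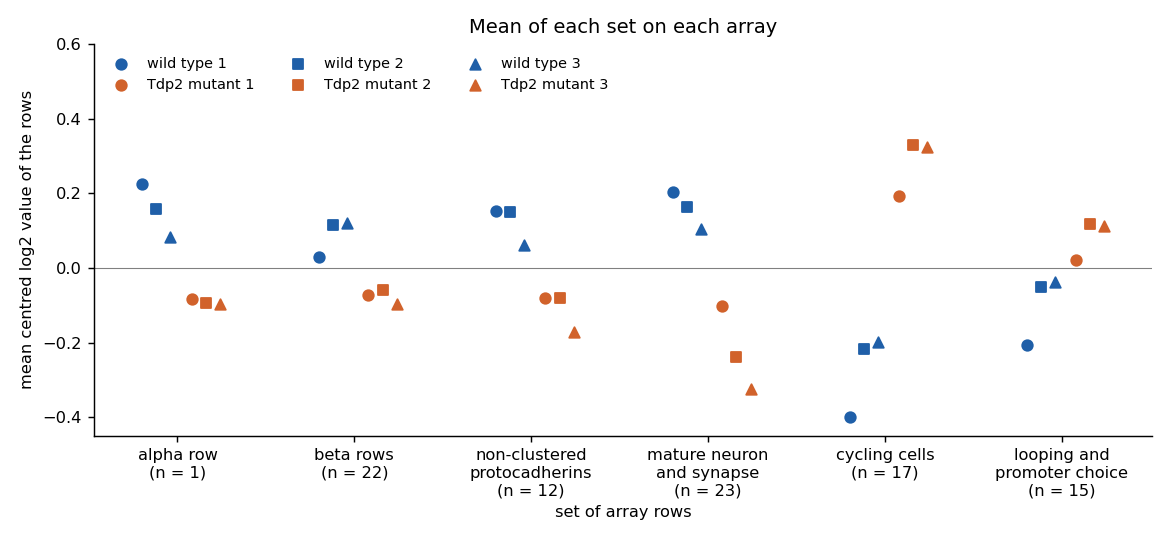
Mean centred log2 value (vertical axis) of each set of rows on each array, with blue for wild-type and orange for mutant brains and the replicate number by marker shape; n is the number of rows averaged. For the alpha row, the beta rows, the non-clustered protocadherins and the neuron genes every wild type lies above every mutant, and for the cycling-cell and looping genes every mutant lies above every wild type.

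The order of the brains within a genotype was the same for the alpha row, the neuron list and the non-clustered protocadherins. It differed for the beta genes. For the non-clustered list replicates 1 and 2 were nearly equal, at 0.153 and 0.150 in wild-type and -0.080 and -0.081 in mutant brains. Among the mutants, replicate 1 was nearest to the wild types for the neuron mean, at -0.10, and for the alpha row, at -0.08. Replicate 3 was the farthest for both, at -0.32 and -0.10, though the mutants' alpha values lay close together. Among the wild types, the mean of the non-clustered protocadherins was 0.15, 0.15 and 0.06 in replicates 1, 2 and 3, and that of the beta genes was lowest in replicate 1. With 3 brains per genotype these within-group orders are a description only.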

How the data were processed

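Total RNA from each of 6 whole brains was hybridised to its own Affymetrix Mouse Gene 1.0 ST array. The authors deposited log2 values normalized by Robust Multi-Array Average (series text), using Affymetrix Expression Console per the submitters' processing notes. The log2 scale follows from that method, since the deposited table names no log base. Row medians across arrays lay within 5e-07 of 0, so each row had been centred, which no label describes. Levels, and so filters on low values, were therefore not available.

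Rows were named from the platform annotation, and symbols, chromosome and gene order came from a RefSeq table of assembly GRCm38.p6, whose build may not be the array's. The mutant was set against the wild type with limma 3.58.1 under R 4.3.3 (lmFit, eBayes, two-sided) over 23410 rows naming a gene, with Benjamini-Hochberg adjustment. SEs are limma's moderated standard errors. The fit was tested on simulated data. Figures used matplotlib 3.10.9.

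The 15 companion and marker lists (194 of 207 genes matched, each by the single-gene row with most accessions) and the members were chosen with earlier results of these data known, and lists are described by counts and medians only. Genes named were Tdp2, called members, the 3 beta genes of smallest p and those nearest the threshold, and list members that were called or among the 4 smallest p. Pcdhb1, Pcdhb4, Pcdhb5, Pcdhb6, Pcdhb16, Pcdhb17, Pcdhb19 and some regulators and neighbours were named after their values were seen. The labels call the samples biological replicates.

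Each array was left out in turn, and other fits used a block for the replicate number, all array rows, single-gene rows, equal array medians, cyclic loess, array weights, a robust variance prior or the 1.5-fold limit.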

Additional observations from a re-analysis of the deposited data

How the results depend on the processing

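With array weights 12 beta genes were called lower, and 2644 of all gene rows were higher and 2781 lower. That fit rested mostly on replicate 2 of each genotype, with weights of 3.65 (wild type) and 2.25 (mutant). The other arrays had weights between 0.44 and 0.75. With the 1.5-fold limit 0 alpha and 0 beta rows were called, and 44 of all gene rows were higher and 106 lower. Leaving out each array in turn gave 0 to 4 beta genes and 0 to 1 alpha row called lower, with 32 to 862 of all gene rows higher and 113 to 1639 lower. The cause was not tested. With the replicate number as a block 3 beta genes (Pcdhb18, Pcdhb20 and Pcdhb22) and the alpha row (limma adjusted p = 0.025) were called, and 904 of all gene rows were higher and 1496 lower. Arrays of the same number deviated from their group means with correlations of 0.21, 0.05 and 0.20 over gene rows. Between arrays of unlike number the correlations ran from -0.22 to 0.06, so numbers 1 and 3 lay above that range and number 2 within it. The series text speaks of pairs of brains. Whether the numbers mark those pairs was not settled, and the main fit used genotype alone. With that block the higher counts became 4 for looping, 4 for methylation, 1 for partners, 1 for neighbours, 1 for serotonergic and 1 for choroid plexus genes, and the lower counts 3 for partners, 2 for serotonergic and 8 for astrocyte genes. With array weights the higher counts were 5 for looping, 6 for methylation, 3 for neighbours and 1 each for partners, serotonergic, choroid plexus and Fat family genes, and the lower counts 9 for partners, 4 each for neighbours, choroid plexus and meningeal genes, 19 for neuron and 2 for serotonergic genes. Other alternatives that used all 6 arrays moved a list count by 1 at most where it changed by over 1.5 times. The alpha row passed with all array rows (limma adjusted p = 0.035), equal medians (0.021), cyclic loess (0.013) and a robust prior (0.027), and it was not among single-gene rows. Under those alternatives, and among single-gene rows, Pcdhb18 and Pcdhb22 were the beta genes called. The beta median ranged from -0.20 to -0.16 and 19 or 20 of 22 beta genes were below 0 in every fit. Over all alternatives, 815 of the values of single named genes kept their side of the threshold, 144 no longer passed and 15 newly passed, and 4 values of Pcdhb1, Pcdhb4 and Pcdhb6, none of which passed, changed sign. No gamma value exists under any alternative, since no row was named for that cluster. The 3 arrays per genotype limit every difference, and signal over background could not be judged on centred values.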
